A study of Homo sapiens with 8 samples.

Results

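Expression of 9 immediate-early genes, FOSB, FOS, JUNB, EGR1, EGR3, ATF3, ARC, MYC and KLF2, was followed in 2 human liver cell lines with and without CM272, a compound that blocks both G9a, a histone methyltransferase, and DNMT1, which copies DNA methylation at replication. The genes were found by their symbol in the platform annotation, as 12 of 48416 probe sets and 9 of 14884 gene symbols. They were selected on their log2 values in the 4 groups, which were already known, so their own levels and differences are given as a description and without p-values. HepG2 cells are a hepatoma line, and LX2 cells are hepatic stellate cells, the collagen-producing cells of the injured liver. The groups were LX2 with CM272 at 400 nM, LX2 control, HepG2 with CM272 at 400 nM and HepG2 control, with 2 arrays in each, and controls received 0.1% DMSO. All cells were seeded at 200000 per well and treated for 48 h. LX2 was kept in 2% and HepG2 in 10% serum, so that line and serum cannot be told apart in any comparison between the lines. No label names separate cultures for the 2 arrays of a group, so p-values reflect array-to-array spread alone, and that spread may be technical.

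Immediate-early genes are transcribed within minutes of a growth factor, serum or stress signal, without new protein synthesis, and in most cells their transcripts soon decline again. MAP kinase signalling reaches their promoters through serum response factor with its ETS partners, which bind CArG boxes, and through CREB and ATF proteins, which bind cyclic AMP response elements with the core TGACG. Most of the genes encode transcription factors that pass the signal on to a second wave of genes. In liver they are known for their induction in regeneration after partial hepatectomy and in injury.

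The sequences just before the start sites were searched for exact matches to these elements. From RefSeq's promoter table (GRCh38.p14), 7 promoters of 6 of the genes were searched (FOSB, FOS, JUNB, EGR1, KLF2 and, with 2 start sites, ATF3). Those of EGR3, ARC and MYC were left out of the search by their chromosome, whether or not the table held them. The 150 bases before the start are printed below for 3 AP-1 genes and EGR1, which share elements, and for KLF2, which held none of those searched. Capitals mark the CArG box, TGACG (or CGTCA where it lies on the other strand) and TATAAA. The regions are chr19:45467846-45467995 for FOSB, chr14:75278678-75278827 for FOS, chr19:12791336-12791485 for JUNB, chr5:138465329-138465478 for EGR1 and chr19:16324676-16324825 for KLF2, all on the plus strand.
FOSB: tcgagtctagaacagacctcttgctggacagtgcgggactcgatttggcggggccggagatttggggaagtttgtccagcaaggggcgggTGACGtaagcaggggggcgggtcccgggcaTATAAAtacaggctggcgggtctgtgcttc
FOS: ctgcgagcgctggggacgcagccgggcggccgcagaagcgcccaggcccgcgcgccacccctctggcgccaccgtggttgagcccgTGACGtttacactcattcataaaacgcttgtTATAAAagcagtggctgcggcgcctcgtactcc
JUNB: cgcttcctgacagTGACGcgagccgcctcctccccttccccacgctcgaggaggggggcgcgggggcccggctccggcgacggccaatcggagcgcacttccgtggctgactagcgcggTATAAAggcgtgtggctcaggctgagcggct
EGR1: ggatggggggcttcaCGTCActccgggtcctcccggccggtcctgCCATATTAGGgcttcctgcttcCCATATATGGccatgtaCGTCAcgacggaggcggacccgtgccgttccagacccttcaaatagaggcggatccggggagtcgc
KLF2: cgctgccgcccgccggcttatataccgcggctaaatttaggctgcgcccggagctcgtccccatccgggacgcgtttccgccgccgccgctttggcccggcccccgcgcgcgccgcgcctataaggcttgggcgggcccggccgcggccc

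The search covered both strands of the 250 bases before each start, and the motifs did not overlap one another. TGACG stood in 4 of the 7 promoters, those of FOSB, FOS, JUNB and EGR1, against 21.2% of 35116 promoters in the table. FOSB and FOS had a like layout, with TGACG at positions -60 to -56 and -64 to -60 and TATAAA at positions -30 to -25 and -33 to -28, counted back from the start site. JUNB had TGACG further out, at positions -137 to -133, and TATAAA at positions -31 to -26. EGR1 was the 1 promoter of the 7 searched with a CArG box, which 1.16% of all promoters had. Its promoter held a pair of them, at positions -105 to -96 and -83 to -74. EGR1 also held TGACG on the other strand at positions -135 to -131 and -66 to -62. TATAAA was found in 4 of the 7, the AP-1 trio and the second start of ATF3 (positions -230 to -225), against 10.7% of all promoters. The shares over all promoters left out no chromosome, while EGR3, ARC and MYC were not searched. A match is a run of letters and not a measured binding site. Elements further out, or with a looser spelling, were not searched.

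In LX2 with CM272, 7 of the 9 genes were higher than in LX2 control, by 1.97-fold to 17.9-fold on the linear scale, and MYC and KLF2 were lower by 1.30-fold and 1.33-fold. In HepG2 the same drug concentration and time went with another set of values: treated and control arrays overlapped for FOSB, FOS, JUNB, EGR3 and KLF2, both treated arrays lay below both controls for EGR1, ATF3 and MYC, and both lay above them for ARC. Such a gap between the groups was found upward for 1 of the 9 genes and 20.7% of all tested genes in HepG2, and downward for 3 of the 9 and 28.2%. In LX2 it was found upward for 7 of the 9 and 23.5% of all tested genes, and downward for 2 of the 9 and 28.6%. The calls come from limma over 12239 tested genes with Benjamini-Hochberg adjustment at 0.05, a threshold that 3.79% of all tested genes passed upward and 4.63% downward in LX2. Of the 9 genes, 7 passed upward and 0 downward there (1 downward, MYC, at an unadjusted p under 0.05, against 14.8% of all genes). In HepG2 0 of the 9 and 0.00817% of all genes passed (1 of 12239), and 4 of the 9 were under an unadjusted p of 0.05, against 11.5% of all genes. Without LX2 control replicate 2, FOSB and ATF3 alone of the 9 passed in LX2 (2 of 9). The median difference of the 9 genes was 1.06 in LX2, against -0.02 over all tested genes, and -0.03 in HepG2, against -0.02. These counts describe genes picked for such values, so nothing further is read from them.

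All 9 genes were above the brightness filter of log2 4 on each of the 8 arrays, the lowest value being 4.32 for EGR3. Replicate arrays of the LX2 CM272 group stood further apart than those of the other groups, with a median absolute difference over genes of 0.26, against 0.13 in LX2 control, 0.16 in HepG2 CM272 and 0.15 in HepG2 control. Markers of the lines were set beside these values. ALB, serum albumin, averaged 3.90 in LX2 CM272, 3.59 in LX2 control, 13.28 in HepG2 CM272 and 13.24 in HepG2 control, and VIM, vimentin of mesenchymal cells, 9.76, 10.19, 3.48 and 3.67 in the same groups. All 14 measured hepatocyte markers exceeded log2 4 in both HepG2 groups and 6 did so in both LX2 groups. Of 8 measured stellate and fibroblast markers, 6 exceeded log2 4 in both LX2 groups and 5 in both HepG2 groups. FN1, fibronectin, was lower in LX2 than in HepG2 (11.08 in LX2 CM272, 11.45 in LX2 control, 12.69 in HepG2 CM272 and 12.83 in HepG2 control), DES, desmin, averaged 6.83, 5.58, 6.13 and 5.91 in the same groups, and DCN, decorin, was under the filter in all 4 (2.00, 2.05, 2.51 and 2.61). Of other cell types, 4 of 6 leukocyte and 5 of 7 endothelial markers exceeded log2 4 in both LX2 groups, as did 5 of 6 leukocyte and 2 (CM272) or 3 (control) of 7 endothelial markers in HepG2. In LX2 the summed log2 levels of hepatocyte markers ran from 54.6 to 56.2 with CM272 and from 53.5 to 54.0 in control, and those of endothelial markers from 31.5 to 33.8 and from 31.1 to 31.2. Stellate sums in LX2 were lower, from 52.5 to 52.6 with CM272 and from 53.0 to 54.1 in control, and leukocyte sums overlapped, from 29.7 to 31.3 and from 30.0 to 30.9. In HepG2 hepatocyte sums ran from 160.0 to 160.4 with CM272 and from 156.7 to 158.4 in control, leukocyte sums from 37.0 to 38.1 and from 38.3 to 38.6, and endothelial sums from 26.4 to 29.3 and from 29.4 to 30.3. Stellate sums overlapped in HepG2, from 42.9 to 43.7 with CM272 and from 43.4 to 43.7 in control. The part of these sums in the results below was not tested.

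**Figure D1:**
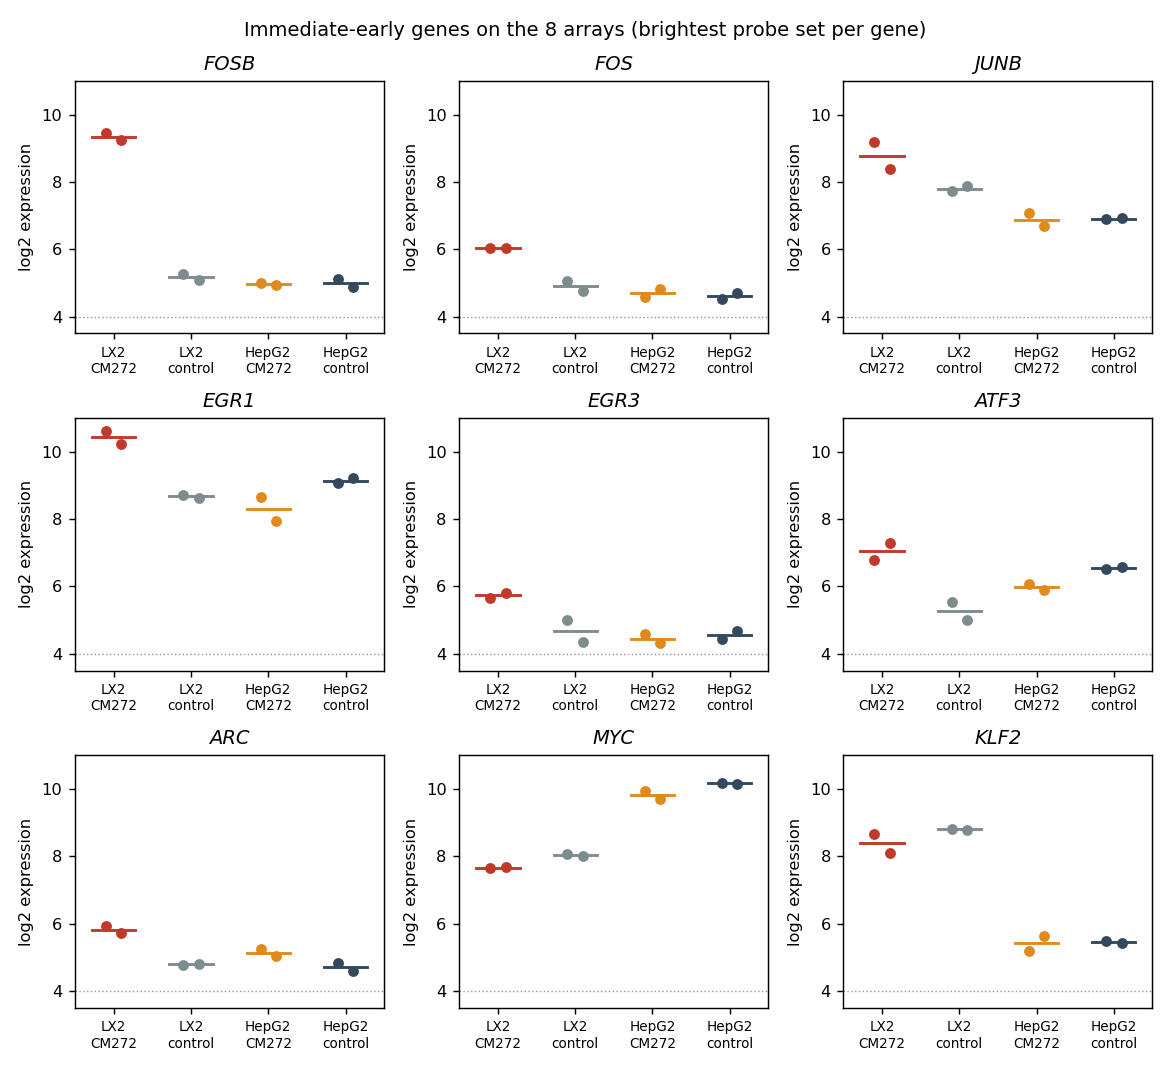
Log2 expression of the 9 genes on each array (points) with group means (lines), from the brightest probe set of each gene; the dotted line is the brightness filter at log2 4. FOSB stands at 9.26 and 9.44 in LX2 CM272 and at 4.88 to 5.28 on the other 6 arrays, while MYC, KLF2 and JUNB separate by line.

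AP-1 is a dimer of a FOS and a JUN family protein. FOSB (probe set 16863287), a FOS family subunit, read 9.44 and 9.26 in LX2 CM272, against 5.28 and 5.10 in LX2 control. It read 5.01 and 4.94 in HepG2 CM272, against 5.12 and 4.88 in HepG2 control. Both LX2 CM272 arrays stood far above the rest, and each neighbouring pair of the other 3 groups overlapped. The difference in LX2 was 4.16 (SE 0.15, 95% interval 3.82 to 4.50), a 17.9-fold higher level, and in HepG2 it was -0.02 (95% interval -0.36 to 0.32). A second FOSB probe set gave an LX2 difference of 0.88.

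FOS (probe set 16786587), the founding subunit of AP-1 and the partner of JUN proteins, read 6.04 and 6.05 in LX2 CM272, against 5.05 and 4.76 in LX2 control. In HepG2 it read 4.58 and 4.81 with CM272, against 4.52 and 4.72 in control. LX2 CM272 alone stood apart, by 1.14 (SE 0.16, 2.21-fold), and the HepG2 difference was 0.08 (95% interval -0.28 to 0.44). Without LX2 control replicate 2 the LX2 difference of FOS was 0.997 and was not called. JUNB (probe set 16858710), a JUN family subunit, read 9.18 and 8.39 in LX2 CM272, against 7.73 and 7.88 in LX2 control. It read 7.07 and 6.69 in HepG2 CM272, against 6.89 and 6.93 in HepG2 control. The LX2 groups did not overlap, but the CM272 arrays differed by nearly as much as the mean difference of 0.98 (SE 0.24). JUNB was no longer called without LX2 CM272 replicate 1 (0.58), LX2 control replicate 1 (0.91) or replicate 2 (1.05), or HepG2 control replicate 1 or 2 or HepG2 CM272 replicate 2 (0.98 each time). Its call was also lost with no filter on dim genes, with each line fitted alone and with the replicate number as a block (0.98 each time).

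ATF3 (probe set 16677278), a stress-induced factor of the ATF/CREB family that often represses, read 6.79 and 7.29 in LX2 CM272, against 5.53 and 5.02 in LX2 control. In HepG2 it read 6.07 and 5.88 with CM272, against 6.53 and 6.59 in control. The 4 groups of ATF3 followed one another with no overlap between neighbours, in the order LX2 CM272, HepG2 control, HepG2 CM272 and LX2 control. How many of all tested genes have 4 such separate groups was not counted, so this is not read as a trait of ATF3. The difference was 1.76 (SE 0.21, 3.39-fold higher) in LX2 and -0.58 (SE 0.21, 95% interval -1.06 to -0.10) in HepG2, where it was not called. LX2 had the lower ATF3 level without drug, with HepG2 control above LX2 control by 1.28 (SE 0.21).

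EGR proteins are zinc finger factors that bind GC-rich sites. EGR1 (probe set 16989736) read 10.63 and 10.23 in LX2 CM272, against 8.72 and 8.63 in LX2 control, and 8.66 and 7.94 in HepG2 CM272, against 9.06 and 9.22 in HepG2 control. The treated arrays lay above both controls in LX2 and below both controls in HepG2. The differences were 1.75 (SE 0.23, 3.37-fold higher) in LX2 and -0.84 (SE 0.23, 95% interval -1.37 to -0.32) in HepG2, and the HepG2 difference was not called. It was -1.21 without HepG2 CM272 replicate 1 and -0.48 without replicate 2. The LX2 call was lost without LX2 control replicate 2 (1.71). EGR3 (probe set 17075395), a paralogue known from lymphocytes and, in mice, muscle spindles, was dim. It read 5.67 and 5.80 in LX2 CM272, against 4.99 and 4.36 in LX2 control, and 4.57 and 4.32 in HepG2 CM272, against 4.43 and 4.68 in HepG2 control. Only LX2 CM272 stood apart among the 4 groups, by 1.06 (SE 0.21) over its control. EGR3 was not called without LX2 control replicate 2 (0.75) or LX2 CM272 replicate 1 (1.13), or with each line fitted alone (1.06).

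ARC (probe set 17081917) is an immediate-early gene best known from synapses, where its protein governs receptor uptake. The CM272 arrays of ARC lay above both controls in each line. Such a gap was found for 23.5% of all tested genes in LX2 and 20.7% in HepG2, and the share with it in both was not counted. ARC read 5.92 and 5.71 in LX2 CM272, against 4.77 and 4.80 in LX2 control, and 5.25 and 5.03 in HepG2 CM272, against 4.84 and 4.59 in HepG2 control. The difference was 1.02 (SE 0.16) in LX2 and 0.43 (SE 0.16, 95% interval 0.08 to 0.77) in HepG2, not called. ARC was no longer called in LX2 without either LX2 control array (1.01 without replicate 1 and 1.04 without replicate 2).

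MYC and KLF2 had negative differences in LX2, neither of them called. MYC (probe set 17072669), a driver of growth and ribosome synthesis that pairs with MAX, read 7.64 and 7.70 in LX2 CM272, against 8.08 and 8.01 in LX2 control, and 9.93 and 9.69 in HepG2 CM272, against 10.17 and 10.16 in HepG2 control. Treated arrays lay below both controls in each line, a gap that 28.6% of all tested genes had in LX2 and 28.2% in HepG2. The differences were close in size, -0.38 (SE 0.14) in LX2 and -0.35 (SE 0.14) in HepG2, and neither was called; the HepG2 value was -0.23 without HepG2 CM272 replicate 2. KLF2 (probe set 16859314), a Krüppel-like factor known from endothelial cells under flow and from quiescent T cells, read 8.67 and 8.11 in LX2 CM272, against 8.82 and 8.78 in LX2 control. In HepG2 it read 5.20 and 5.64 with CM272, against 5.47 and 5.42 in control. Its difference was -0.41 (SE 0.21, 95% interval -0.88 to 0.06) in LX2 and -0.03 (95% interval -0.50 to 0.44) in HepG2. The LX2 value rested on which CM272 array was used, with -0.69 without replicate 1 and -0.13 without replicate 2.

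**Figure D2:**
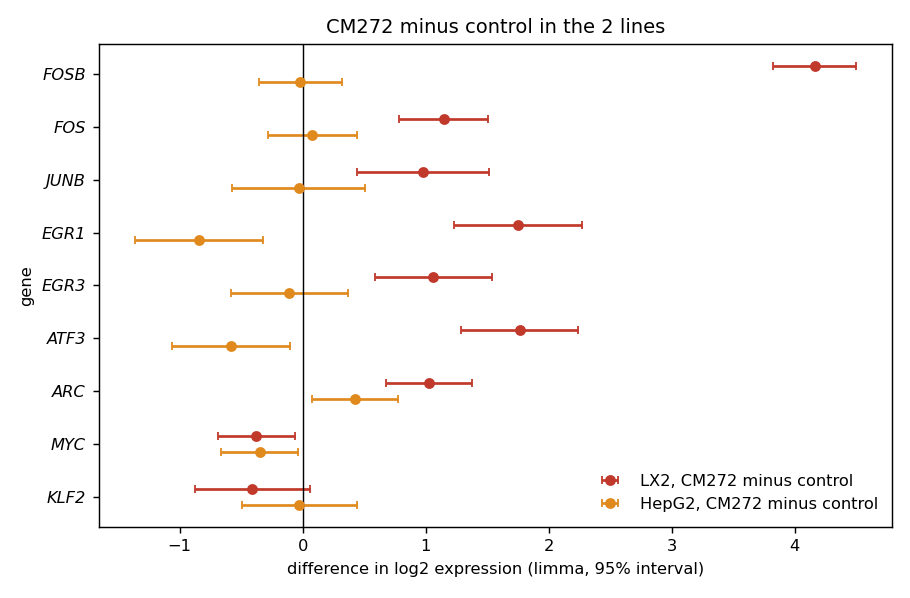
CM272 minus control for each gene in LX2 (red) and HepG2 (orange), in log2 units, with 95% intervals from limma. FOSB lies at 4.16 in LX2 and at -0.02 in HepG2, and EGR1 and ATF3 lie on opposite sides of 0 in the 2 lines.

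The lines differed in 4 of the 9 genes without drug, read as HepG2 control against LX2 control, where 58.1% of all tested genes were called. MYC was higher by 2.12 (SE 0.14, 4.35-fold) in HepG2 control and ATF3 by 1.28, while KLF2 was lower by 3.35 (SE 0.21, 10.2-fold) and JUNB by 0.89 (SE 0.24). FOSB (-0.19), FOS (-0.29), EGR1 (0.46), EGR3 (-0.12) and ARC (-0.07) were not called. The median of all tested genes was -0.27 in this comparison and -0.01 after quantile normalization over the 8 arrays, under which FOSB (0.07), EGR3 (0.12) and ARC (0.17) turned sign. JUNB lost its call with that normalization (-0.61) and without LX2 control replicate 2 (-0.82), and EGR1 gained one with it (0.72), with both probe sets averaged (0.47) and without either HepG2 CM272 array (0.46). KLF2 and MYC were thus set apart by line far more than by CM272, and FOSB and FOS by CM272 in LX2. The effect of CM272 in HepG2 minus that in LX2 was past the threshold for 3 of the 9, FOSB, EGR1 and ATF3, and for 1.18% of all tested genes. EGR1 lost that call without LX2 control replicate 1 (-2.64) or 2 (-2.55), and ATF3 without LX2 control replicate 2 (-2.09), HepG2 control replicate 1 (-2.37) or HepG2 CM272 replicate 2 (-2.25). For FOS and JUNB a call was gained without LX2 CM272 replicate 2 (-1.06 and -1.40), and for FOS also with the filter at log2 6 (-1.07). With all arrays it was -1.07 for FOS (95% interval -1.57 to -0.56), -1.01 for JUNB (-1.77 to -0.25), -1.17 for EGR3 (-1.84 to -0.50) and -0.60 for ARC (-1.09 to -0.10), none of them called. For MYC it was 0.03 (95% interval -0.42 to 0.47) and for KLF2 0.38 (-0.28 to 1.04), which ran from 0.10 to 0.66 with single arrays left out. The 2 contrasts that it joins share no arrays.

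A second probe set carried the symbol for 3 of the genes and gave a smaller LX2 difference each time. FOSB's second probe set (16873329) read 6.59 and 6.18 in LX2 CM272, against 5.42 and 5.59 in LX2 control, a difference of 0.88 where the brighter one gave 4.16. EGR1's (17000463) read 5.33 and 6.38 in LX2 CM272, against 5.01 and 5.16 in LX2 control, and 5.18 and 5.03 in HepG2 CM272, against 5.65 and 5.47 in HepG2 control. These 2 kept the side of the brighter probe set in LX2, and EGR1's did so in HepG2 (-0.46). FOS's second probe set (16794955) read 5.28 and 4.49 in LX2 CM272, against 4.62 and 4.48 in LX2 control, and the groups overlapped (0.34). Averaging both probe sets gave LX2 differences of 2.52 for FOSB, 1.26 for EGR1 and 0.74 for FOS. The part of each gene that a probe set covers, and its strand, were not used here.

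**Figure D3:**
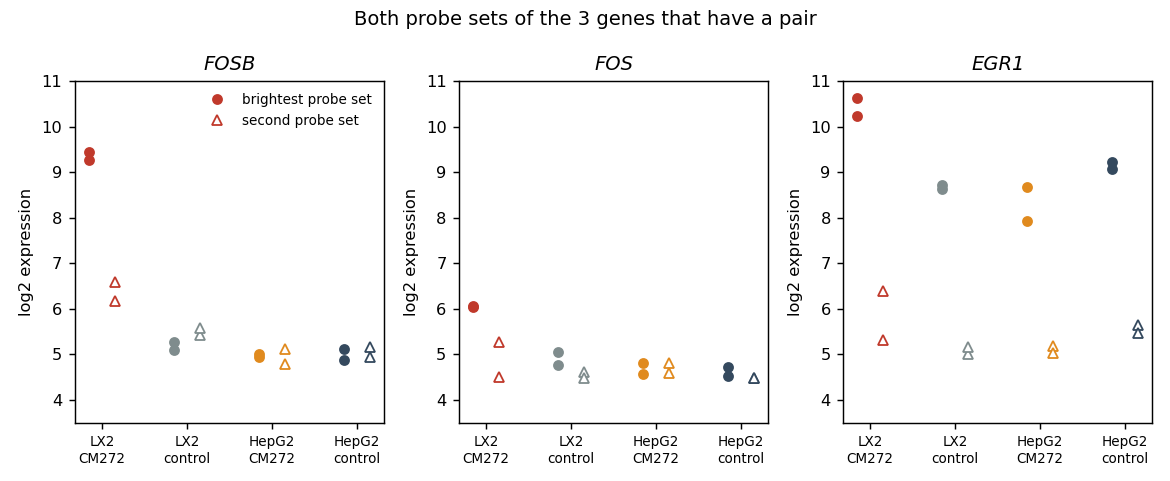
Log2 expression on each array for the 3 genes with a pair of probe sets, brightest (filled circles) and second (open triangles). FOSB's second probe set differs by 0.88 between the LX2 groups and its brightest by 4.16.

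Other genes of the same response were taken from lists drawn up from textbook knowledge and not picked for how they moved. Earlier results of these data were known when the lists were chosen, so the list calls are no independent test. Of 36 listed immediate-early and AP-1 family genes outside the 9, 21 were measured, 2 of them rose in LX2 with CM272 (3.79% of all tested genes rose), 0 fell and 19 did not pass. EGR4 (probe set 16899032), the fourth EGR factor, read 6.53 and 6.04 in LX2 CM272, against 5.13 and 4.48 in LX2 control. It rose by 1.48 (SE 0.23, limma adjusted p = 0.0078). KLF5, a Krüppel-like factor of proliferating epithelium and smooth muscle, rose by 0.69 (SE 0.16, limma adjusted p = 0.032), with 6.80 and 6.76 in LX2 CM272, against 6.12 and 6.06 in LX2 control. JUN, the main partner of FOS proteins, was at -0.22 (SE 0.16) and SRF, serum response factor, at 0.50 (SE 0.15), and neither passed; both were named after their values were seen. The list's median difference was 0.10 in LX2, against -0.02 over all tested genes, and at an unadjusted p under 0.05 it had 3 higher members, against 10.5% of all tested genes, and 2 lower ones, against 14.8%. Leaving out LX2 control replicate 2 ended the EGR4 call (1.16), and KLF5 lost its call without either LX2 control array, LX2 CM272 replicate 1 or either HepG2 control array (0.66 to 0.72).

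In HepG2 none of those 21 passed limma (0 called), and 7 were lower and 0 higher at an unadjusted p under 0.05, against 6.7% and 4.76% of all tested genes. Their median was -0.29, against -0.02 over all tested genes. KLF10, a TGF-beta-induced Krüppel-like factor, read 8.62 and 7.98 in HepG2 CM272, against 9.75 and 9.36 in HepG2 control (-1.26, SE 0.23, limma adjusted p = 0.220). FOSL1, a FOS family subunit, was at -0.87 (SE 0.21, limma adjusted p = 0.231).

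Feedback regulators shut the response down, by removing phosphate from MAP kinases (DUSP proteins), blocking receptors or destroying transcripts. Of 32 listed, 18 were measured. In LX2, 2 rose, 0 fell and 16 did not pass, where 3.79% of all tested genes rose and 4.63% fell. The list's median was 0.13, against -0.02 over all tested genes, and at an unadjusted p under 0.05 it had 4 higher and 0 lower members, against 10.5% and 14.8% of all tested genes. ERRFI1, an inhibitor of the EGF receptor, rose by 0.78 (SE 0.16, limma adjusted p = 0.023), with 8.73 and 9.13 in LX2 CM272, against 8.09 and 8.21 in LX2 control. DUSP5, a nuclear ERK phosphatase, rose by 0.66 (SE 0.16, limma adjusted p = 0.0347), with 6.96 and 6.85 in LX2 CM272, against 6.32 and 6.17 in LX2 control. ERRFI1 lost its call without LX2 control replicate 1 (0.72) or replicate 2 (0.84), and DUSP5 without those, LX2 CM272 replicate 1 or either HepG2 control array (0.58 to 0.74). DUSP5 also lost it with no filter on dim genes and with its probe sets averaged, and its lowest value over all alternatives was 0.43. In HepG2 0 were called by limma and 9 of the 18 were lower at an unadjusted p under 0.05, against 6.7% of all tested genes, with 0 higher (4.76% of all tested genes) and a median of -0.38, against -0.02. TRIB1, a pseudokinase scaffold, read 9.09 and 8.49 in HepG2 CM272, against 10.04 and 9.74 in HepG2 control (-1.10, SE 0.20, limma adjusted p = 0.220). DUSP8 was at -0.63 (SE 0.15).

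Of 43 listed kinases, receptors and transcription factors upstream of the response, 23 were measured. In LX2, 2 fell and 0 rose, against 4.63% and 3.79% of all tested genes. At an unadjusted p under 0.05, 7 of the 23 were lower and 1 higher, against 14.8% and 10.5%. SOS1, the exchange factor that loads RAS with GTP, fell by 0.70 (SE 0.15, limma adjusted p = 0.027), with 7.35 and 7.68 in LX2 CM272, against 8.15 and 8.28 in LX2 control. MAPK9, which encodes the kinase JNK2, fell by 0.62 (SE 0.14, limma adjusted p = 0.0318), with 7.02 and 7.15 in LX2 CM272, against 7.78 and 7.62 in LX2 control. The median was -0.07 in LX2 and -0.04 in HepG2, against -0.02 over all tested genes in each. In HepG2 0 passed limma, and with no adjustment 1 was higher and 3 were lower, against 4.76% and 6.7% of all tested genes. There MAP2K6, which activates p38, was at 0.80 (SE 0.25) and MET, the hepatocyte growth factor receptor, at -0.75 (SE 0.22). Of 12 measured MYC partners and antagonists 0 passed limma in either line. With no adjustment, 2 were past the same threshold upward and 1 downward in LX2, against 10.5% and 14.8% of all tested genes, and 1 upward and 3 downward in HepG2, against 4.76% and 6.7%. Their median was 0.03 in LX2 and -0.10 in HepG2. MXD1, a MAX partner that opposes MYC, was at 0.66 (SE 0.18) in LX2 and -0.72 (SE 0.18) in HepG2. USP28, which stabilises MYC, was at -0.64 (SE 0.18) in LX2, and MXD4 at 0.63 (SE 0.17) in HepG2. The list calls in LX2 rest on both control arrays: without LX2 control replicate 1 the immediate-early, feedback and upstream lists held 1, 0 and 0 calls, and without replicate 2 they held 0, 0 and 0. SOS1 and MAPK9 also lost their calls without LX2 CM272 replicate 1 (-0.53 and -0.55) and without either HepG2 control array, and MAPK9 without HepG2 CM272 replicate 2 and with the replicate number as a block (-0.62 each time). With each line fitted alone, KLF5, ERRFI1, DUSP5, SOS1 and MAPK9 were not called in LX2 and EGR4 was.

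**Figure D4:**
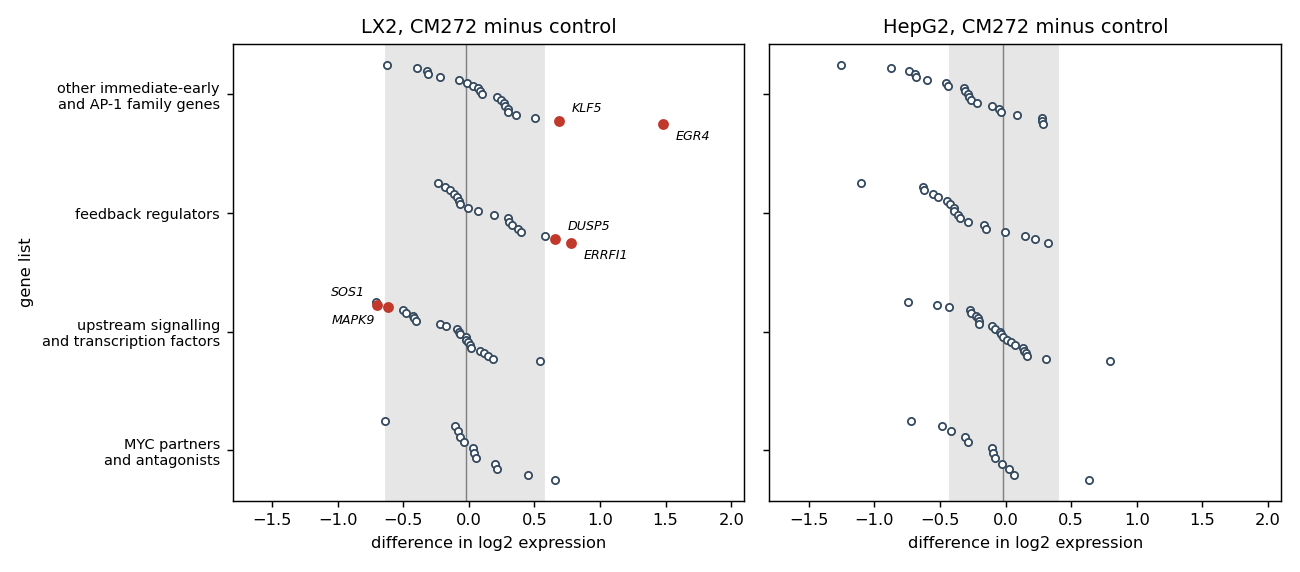
CM272 minus control in log2 units for each measured gene of the 4 lists, in LX2 (left) and HepG2 (right); filled red points passed limma's adjusted threshold, and the grey band spans the 5th to 95th percentile of all tested genes, with their median as a line. EGR4 lies furthest right in LX2 at 1.48, and no list gene passed in HepG2.

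Genes with the profile most like that of a member were ranked by the root mean square difference of their values on the 8 arrays, each centred on its own mean. Nearest to FOSB was SNAI1, a repressor that drives epithelial-mesenchymal transition, at 0.38 log2 units where FOSB's own profile had a spread of 1.86. It averaged 9.99 ± 0.03 in LX2 CM272, against 6.13 ± 0.24 in LX2 control (SD, n = 2 arrays), and 4.99 ± 0.09 in HepG2 CM272, against 5.17 ± 0.05 in HepG2 control. ZNF280A, a zinc finger gene (0.44), and USP17L15, of a near-identical deubiquitinase family whose probes may share signal (0.60), came next. For EGR1, with a spread of 0.83, the nearest were CXCR4, the CXCL12 receptor (0.27), BAIAP2, an actin regulator (0.29), and LOC339166 (0.30). For ATF3, with a spread of 0.68, they were RND1, a regulator of the actin cytoskeleton (0.29), TXNIP, a thioredoxin inhibitor (0.30), and ERN1, which encodes the unfolded protein sensor IRE1 (0.33). ERN1 averaged 7.28 ± 0.06 in LX2 CM272, against 6.16 ± 0.15 in LX2 control, and 6.59 ± 0.40 in HepG2 CM272, against 7.53 ± 0.16 in HepG2 control. A gene found this way is near by construction, and no test was made of the likeness.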

How the data were processed

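Total RNA (300 ng per sample) was labelled and hybridised to Affymetrix whole-transcript arrays. The authors deposited log2 expression values made with RMA, per the submitters' processing notes, which name no version. RMA is built to set a common intensity distribution, which removes part of a shift common to most genes, and it compresses folds of dim genes. The deposited values did not share a distribution: array medians ran from 4.42 to 4.54 in LX2 and from 4.19 to 4.25 in HepG2. Values ran from 0.49 to 14.07. Arrays give no counts, and their number limits the precision.

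Of 48416 probe sets 16098 had 1 symbol, 0 had several and 32318 had none in the platform annotation. The brightest probe set per symbol was kept. Genes over log2 4 in both arrays of at least 1 group were tested (12239). One limma 3.58.1 fit (R 4.3.3) with a mean per group gave all differences, two-sided, with Benjamini-Hochberg adjustment (4 residual and 5.47 prior degrees of freedom), and was tested on simulated data. An exact permutation test of 2 arrays against 2 cannot go below p = 0.333. Members and lists were chosen with earlier results of these data known. Named were all members, up to 4 list genes called in LX2 and 2 in HepG2 by size (otherwise up to 2 as values), the 3 nearest profiles and bright markers. Alternatives were the filter, quantile normalization, probe set averaging, each line alone, a replicate block and leaving out each array. Figures used matplotlib 3.10.9.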

Additional observations from a re-analysis of the deposited data

Results flagged for a closer look

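The effect of CM272 differed between the lines for 6 of the genes described, by the limma contrast that subtracts the LX2 difference from the HepG2 difference. Of the 9 members these were 3, with -4.18 for FOSB (SE 0.21), -2.59 for EGR1 (SE 0.33) and -2.35 for ATF3 (SE 0.30). Since these genes were chosen with such values known, this describes them and is no independent test. Of 74 measured genes of the 4 lists, also chosen with earlier results known, there were 3 more, against 1.18% of all tested genes. KLF5 differed by -1.42 (SE 0.23, adjusted p = 0.025 in limma), ERRFI1 by -1.22 (SE 0.23, adjusted p = 0.041 in limma) and MXD1 by -1.38 (SE 0.26, adjusted p = 0.041 in limma). The KLF5, ERRFI1 and MXD1 calls were lost without either LX2 control array, either HepG2 control array or HepG2 CM272 replicate 2, for ERRFI1 also without HepG2 CM272 replicate 1 and for MXD1 also without LX2 CM272 replicate 1. With no filter on dim genes both ERRFI1 and MXD1 lost them, as did ERRFI1 with the replicate block (-1.22) and MXD1 with quantile normalization over the 8 arrays. Their values ran from -1.61 to -1.24 for KLF5, from -1.42 to -1.03 for ERRFI1 and from -1.64 to -1.13 for MXD1 over all alternatives. The lines also differed in serum, which cannot be told apart from the line.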

How the results depend on the processing

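The differences of the 9 members were recomputed under 14 alternatives: 433 of 469 values stayed within 1 SD, 36 moved by more and 0 of those called turned sign. Many of these values could not move. The filter, separate fits, the block and leaving out an array outside the contrast do not change a difference of group means. The SD came from the gaps between replicate arrays, which also set how far leaving out 1 array moves a mean. The count is therefore no measure of robustness. In LX2 FOSB (2.52 to 4.25) and ATF3 kept their calls under all 14, and JUNB was called in 5 of 14. Leaving out single arrays gave 2 to 7 called members in LX2, 0 in HepG2, 1 to 5 for the difference between lines and 3 to 5 between the controls. Over all genes it gave 55 to 2492 calls in LX2 (1031 with all arrays), 0 to 1 in HepG2 and 18 to 918 for the difference between lines (145 with all arrays). In LX2 the list calls then ran from 0 to 4 for the immediate-early and for the feedback list, 0 to 5 for the upstream list and 0 to 2 for the MYC list. With no filter 79 genes were called for the difference between lines, 2 in HepG2 and 1 of the feedback list in LX2. With the filter at log2 6, which removed EGR3 and ARC, those for the difference were 371 and in HepG2 4, and in LX2 the immediate-early list had 4 calls, the upstream list 5 and the MYC list 3. Averaged probe sets left 1 feedback call in LX2. Each line fitted alone gave 198 calls in LX2 and 0 in HepG2 by limma, with 1, 0 and 0 in the immediate-early, feedback and upstream lists and 5 of the 9 members (JUNB and EGR3 were lost). Replicate numbers were taken as a block although nothing in the labels pairs them, and same-numbered arrays deviated together only weakly (r = 0.08 in LX2 and 0.07 in HepG2 across genes, which are not independent). With the replicate block 6 genes were called in HepG2, 71 for the difference and 1 of the MYC list in LX2, and in LX2 the calls of JUNB and MAPK9 were lost. The block could not be fitted to the comparison of the controls. The cause of these changes was not tested, except that single-array settings and the higher filter hold fewer arrays or genes. EGR3 and ARC lay under log2 6 on all 8 arrays, where RMA compresses differences.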
